A study of Mus musculus with 4 samples.

Results

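The regions described here are a pair of 1 Mb windows of the mouse genome in which peaks of input DNA were listed densely, chr4:146000000-146999999, which holds 6 C2H2 zinc finger genes and 22 pseudogenes among 41 annotated genes, and chr5:15000000-15999999, where all 118 input peaks lay in 222 kb around Speer genes (mm9 positions throughout). The members are all rows of the 4 deposited peak lists that start in these windows. The chromosome 4 window holds 308 input peaks, 63 Dzip3 peaks, 54 Ring1B peaks and 101 ubH2A peaks, and the chromosome 5 window holds 118, 67, 53 and 93, together 857 of 30047 listed peaks. The windows were chosen by their number of input peaks. They rank 1 and 9 among the 1530 windows of 1 Mb with an input peak, where the median is 2 such peaks, and these counts are a description only.

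All 4 libraries come from E14 mES cells, a mouse embryonic stem cell line of strain 129/Ola, which were grown in 2i + LIF (1000 U/ml LIF with the inhibitors PD0325901, 1 μM, and CHIR99021, 3 μM), used at passages 3 to 5 and fixed for 10 min in 1% formaldehyde. Chromatin was pulled down with antibodies against Dzip3, Ring1B or ubH2A, and input DNA was not pulled down. There is 1 library for each target, so no value has a replicate error, no test was possible, and every interval given is a 95% interval for counting error only. The library sizes implied by the lists are 48.3 M reads for input DNA, 53.3 M for Dzip3, 51.8 M for Ring1B and 67.0 M for ubH2A, more than the uniquely mapped reads that the study's methods state, and all ratios between libraries are scaled to them as RPM (reads divided by the library size in M reads).

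Ring1B is the catalytic subunit of polycomb repressive complex 1, which places a single ubiquitin on histone H2A (ubH2A), a mark of repressed developmental genes, and Dzip3 is a RING finger ubiquitin ligase that also acts on H2A. C2H2 zinc finger genes encode DNA-binding proteins whose fingers are short repeated units, they have multiplied by tandem duplication into large clusters, and many carry a KRAB domain that recruits repressors. Speer genes, named for spermatogenesis associated glutamate (E)-rich proteins, are a rodent family expressed in the testis and likewise found in tandem copies.

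The sequences show how the members of each window resemble each other. The input peaks with the greatest height had, over their central 150 bases, these sequences (mm9, + strand, chr4:146141446-146141595 and chr5:15199882-15200031), in which capitals mark bases that lie in at least 1 word of 31 bases found once in the genome.
Chromosome 4, intron of Zfp600: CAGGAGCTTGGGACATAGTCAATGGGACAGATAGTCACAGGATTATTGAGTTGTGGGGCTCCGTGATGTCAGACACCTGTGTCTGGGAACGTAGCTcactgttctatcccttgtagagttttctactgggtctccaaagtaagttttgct
Chromosome 5, intron of Speer7-ps1: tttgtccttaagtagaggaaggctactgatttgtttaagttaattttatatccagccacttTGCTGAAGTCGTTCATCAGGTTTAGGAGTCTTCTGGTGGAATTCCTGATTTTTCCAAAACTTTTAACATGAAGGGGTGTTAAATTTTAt
In the first, 96 of 150 bases were in such single-copy words and the words occurred up to 12 times. In the second, 88 bases were, and the words occurred up to 480 times.

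The largest group of like input peaks on chromosome 4 (at least 80% identity over at least 80% of the shorter peak) had 15 members, of which 3 are shown over 100 bases on the + strand, with capitals where they differ from the first (chr4:146887724-146887823, chr4:146553279-146553378 and chr4:146886633-146886732).
Peak starting at 146887674, past the end of Gm13152: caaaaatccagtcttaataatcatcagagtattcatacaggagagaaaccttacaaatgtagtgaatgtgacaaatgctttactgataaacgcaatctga
Peak starting at 146553019, coding exon of Gm13139: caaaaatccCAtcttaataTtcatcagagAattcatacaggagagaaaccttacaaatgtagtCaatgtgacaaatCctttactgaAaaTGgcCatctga
Peak starting at 146886496, coding exon of Gm13152: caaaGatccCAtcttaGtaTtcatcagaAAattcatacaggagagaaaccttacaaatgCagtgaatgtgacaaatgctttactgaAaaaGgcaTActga
These stretches differ at 10 and 12 of 100 bases. In order, the peaks held 24, 117 and 73 input reads beside 10, 49 and 26 Dzip3, 5, 43 and 17 Ring1B and 6, 94 and 29 ubH2A reads, and over all 15 peaks the scaled ChIP levels were 0.380, 0.356 and 0.435 times the input. In 12 of the 15 members a reading frame without a stop held a C2H2 finger (2 cysteines, then 2 histidines 12 residues later, with 2 and 3 residues within the pairs), and no other input peak of the window did.

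On chromosome 5 the largest group of like peaks had closer copies. In this group, with 5 members, a stretch of 100 bases differed at 1 base between the peak starting at 15167340 and that starting at 15036936 (chr5:15167434-15167533 and chr5:15037545-15037644, + strand, capitals as before).
Peak starting at 15167340: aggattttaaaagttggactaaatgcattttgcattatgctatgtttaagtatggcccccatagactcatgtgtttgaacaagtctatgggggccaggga
Peak starting at 15036936: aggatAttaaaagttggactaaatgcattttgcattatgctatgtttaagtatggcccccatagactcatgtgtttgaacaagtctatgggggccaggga
The first held 42 input, 41 Dzip3, 23 Ring1B and 40 ubH2A reads, and the second 179, 364, 273 and 389, in peaks of 287 and 976 bp. Per kb the input levels were 3.03 and 3.8 RPM. A group of 4 input peaks, which was picked out after its values were seen, had 1 member in each protein-coding Speer gene, at a coding exon, and its members were 97.5% to 99.5% identical. Over 100 bases on the strand of the gene, the copies in Gm17019 (chr5:15030223-15030322, - strand), Speer4d (chr5:15128289-15128388, + strand) and 4930572O03Rik (chr5:15159397-15159496, - strand) differed from the first at 2 bases and 1 base.
Gm17019: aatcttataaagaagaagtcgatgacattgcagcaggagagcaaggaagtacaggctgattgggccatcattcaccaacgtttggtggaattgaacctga
Speer4d: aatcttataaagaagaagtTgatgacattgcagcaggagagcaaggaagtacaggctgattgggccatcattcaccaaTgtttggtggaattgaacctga
4930572O03Rik: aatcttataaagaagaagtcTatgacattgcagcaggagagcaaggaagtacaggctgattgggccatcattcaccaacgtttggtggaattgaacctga

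The order of the 4 libraries by number of peaks depended on the height at which each list stops. The input list goes down to a height of 0.311 RPM (15 reads), and the Dzip3, Ring1B and ubH2A lists stop at 0.619, 0.599 and 0.477 RPM (33, 31 and 32 reads). Of the 308 input peaks on chromosome 4, 24 reached 0.619 RPM, beside 63 Dzip3, 49 Ring1B and 52 ubH2A peaks. On chromosome 5, 46 of 118 input peaks did, beside 67, 48 and 59. At this common height input DNA therefore had the fewest peaks of the 4 libraries in both windows, by a margin of 2 peaks on chromosome 5. The whole lists held 1229 input, 6482 Dzip3, 8489 Ring1B and 3046 ubH2A peaks of at least this height. Input DNA thus had the fewest there too, and its last place is not particular to these windows. By input peaks of that height the windows ranked 6 and 4 of 565.

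**Figure D1:**
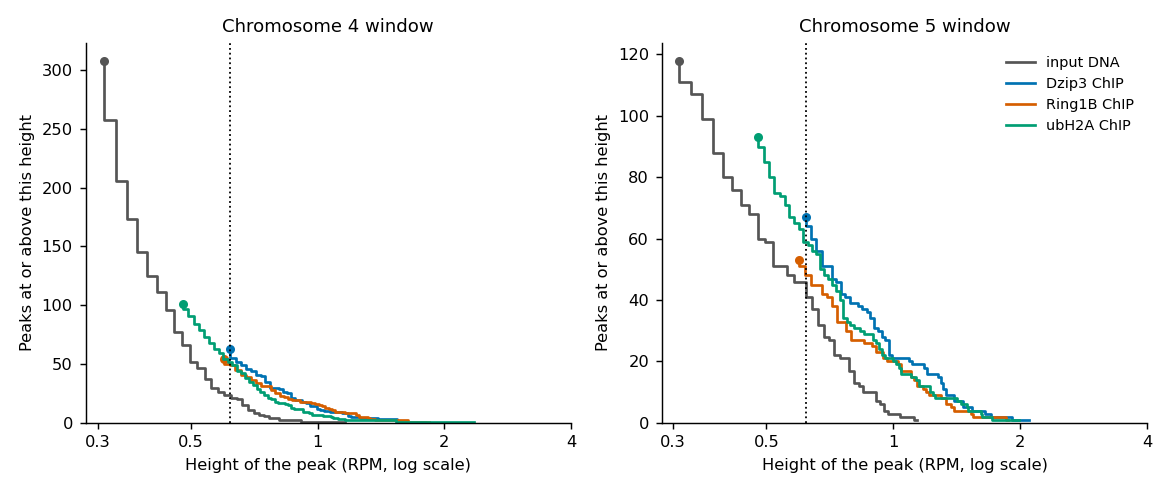
Number of peaks at or above a height in RPM (x axis, log scale) for the 4 libraries in each window, with a dot where each list ends and a dotted line at 0.619 RPM. The input curve starts at 308 and 118 peaks but lies lowest at the dotted line, at 24 and 46 peaks. Input DNA also has the fewest peaks of that height in the whole lists.

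The chromosome 4 window held peaks along its whole length. Input peaks started from 146017690, just past an assembly gap at its left edge, to 146999651, and the densest stretch was 700 to 900 kb from the window's first base, with 66 and 60 input peaks in 100 kb each, against 11 to 42 elsewhere. The Dzip3, Ring1B and ubH2A peaks were likewise most frequent at 700 to 800 kb, with 21, 14 and 30 peaks. The neighbouring 1 Mb to the left held 275 input peaks and that to the right 32, so the array runs past the left edge of the window.

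In the chromosome 5 window all 118 input peaks lay in the first 222 kb, and none was listed in the remaining 778 kb. The neighbouring 1 Mb to the left held 75 input peaks, the last of which started at 14996644. The input peaks thus run past the left edge of this window too, and the 222 kb are only the part inside it. The last input peak ended at 15221648, which is 1594 bp upstream of the start of Speer4c, and the next input peak on the chromosome started at 16248606. Past the array 3 Dzip3 peaks, 2 Ring1B peaks and 1 ubH2A peak were listed. Per 10 kb of sequenced bases there were 6.86 input peaks in the 222 kb of chromosome 5 and 3.30 in the chromosome 4 window, and input peaks took up 31.5% and 13.5% of these bases. Assembly gaps left out 50 kb on chromosome 5 and 67.4 kb on chromosome 4.

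**Figure D2:**
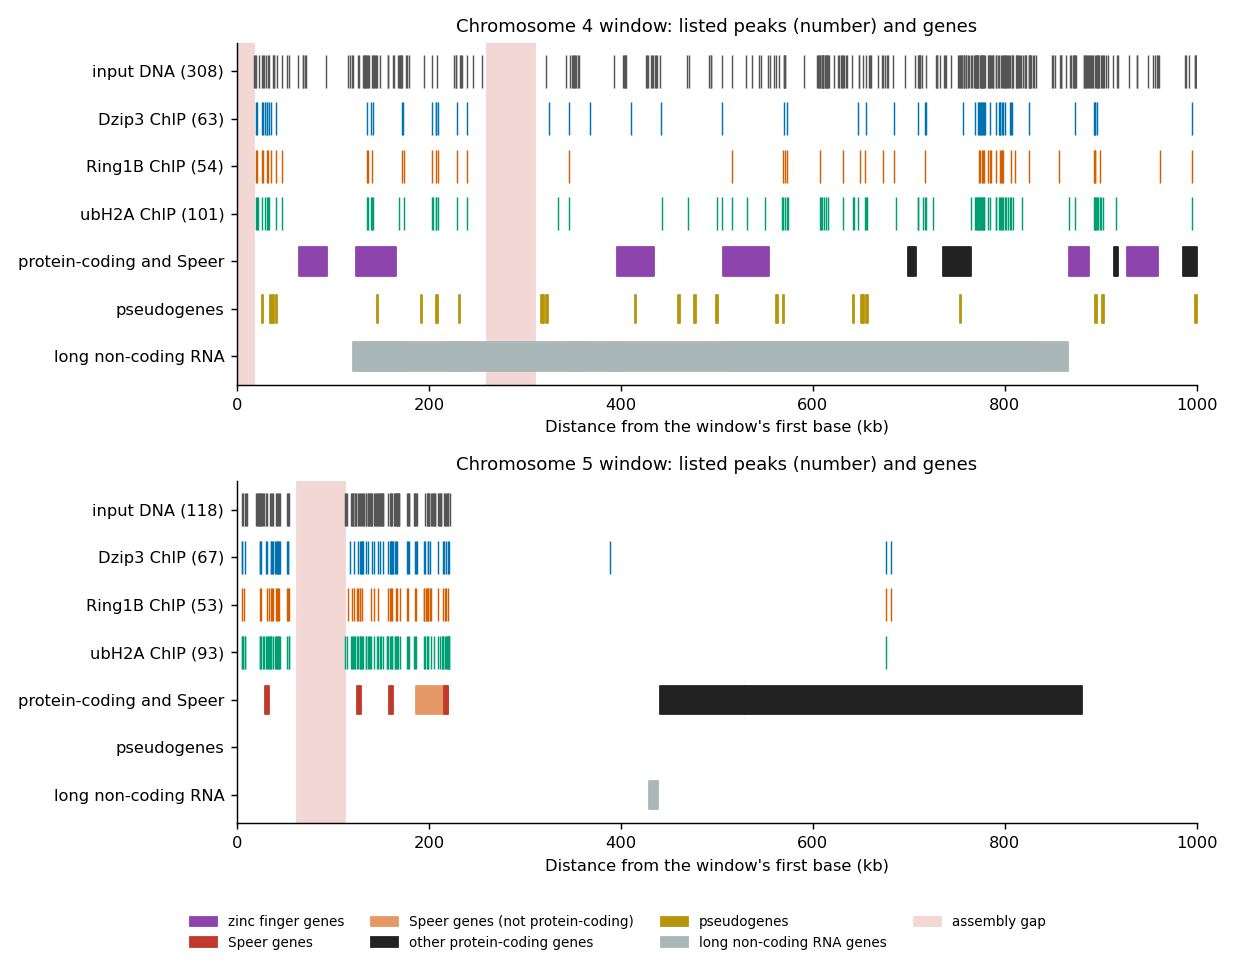
Listed peaks of the 4 libraries (ticks, number in brackets) and annotated genes by family along both 1 Mb windows, in kb from the first base, with assembly gaps shaded. Input peaks run along the whole chromosome 4 window, and on chromosome 5 they end at 222 kb with the Speer genes.

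Neighbouring input peaks were about 1 kb apart. The median distance from start to start was 1262 bp on chromosome 4 (quartiles 685.5 and 2919 bp) and 979 bp on chromosome 5 (652 and 1404 bp). Distances under 1 kb made up 39.1% on chromosome 4 (120 of 307) and 54.7% on chromosome 5 (64 of 117). The distances in the ChIP lists, which hold fewer peaks because they stop at a greater height, had medians of 3495.5 bp for Dzip3, 5087 bp for Ring1B and 2064.5 bp for ubH2A on chromosome 4, and 1481, 1770 and 1164 bp on chromosome 5. At the common height of 0.619 RPM the median for input DNA lay between those of the ChIP lists, at 4410 bp on chromosome 4 (Dzip3 3495.5, ubH2A 4165 and Ring1B 5282 bp) and 1837 bp on chromosome 5 (1481, 1957.5 and 2222 bp). On chromosome 4 between 20 and 23 distances of each list were over 10 kb, while on chromosome 5 it was 1 for input DNA (across the assembly gap), 5 for Dzip3, 3 for Ring1B and 3 for ubH2A. Neighbours within a group of like peaks were a median of 198 kb apart on chromosome 4 (0.532 to 798 kb, 80 distances) and 57.1 kb on chromosome 5 (0.303 to 190 kb, 47 distances). The latter median is close to the offset of the longest repeated pair on chromosome 5, 57.2 kb, and whether 1 repeat length sets these distances was not tested.

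**Figure D3:**
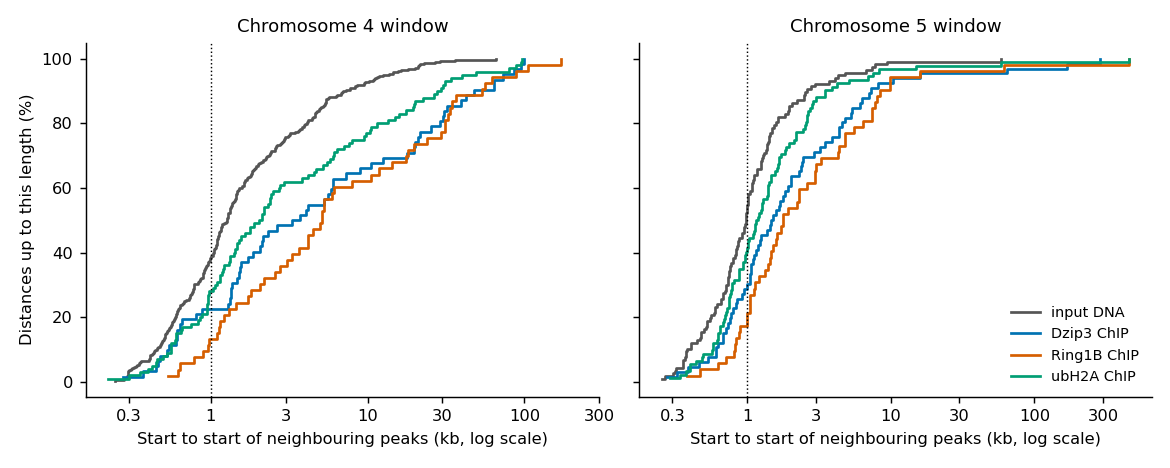
Share of distances (y axis, %) up to a given start-to-start distance of neighbouring peaks (x axis, kb, log scale) for each list and window, with a dotted line at 1 kb. The input curve lies left of the 3 ChIP curves in both windows, with 39.1% and 54.7% of its distances under 1 kb, in lists that stop at different heights.

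Most of the sequence of both arrays is copied within the window. When each window was aligned to itself, 79.8% of the sequenced bases on chromosome 4 lay in a pair of at least 1 kb and 90% identity. On chromosome 5 this held for 99.1% of the first 222 kb and 4.77% of the rest. By their centres, 232 of 308 input peaks of chromosome 4 lay in such pairs (75.3%, 70.2% to 79.8%). So did 37 of 63 Dzip3, 33 of 54 Ring1B and 63 of 101 ubH2A peaks there. On chromosome 5 it was all 118 input peaks, and 66 of 67, 53 of 53 and 93 of 93 ChIP peaks. The longest pair on chromosome 4 was 30.1 kb long with 97.3% identity and 615 kb apart, and that on chromosome 5 was 15 kb long with 97.6% identity and 57.2 kb apart. The pairs on chromosome 4 ran almost all in the same direction (274 of 287), and those on chromosome 5 in both directions (80 same, 75 opposite). Like peaks fell into 43 groups with 123 of the 308 input peaks on chromosome 4, and into 29 groups with 76 of the 118 on chromosome 5, where the median identity within a pair was 98.6% against 85.6%. Over all aligned pairs of a window the medians were closer, 93.1% on chromosome 4 and 96.1% on chromosome 5. Between the windows, 7 chromosome 5 input peaks were like 3 of chromosome 4.

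Words of 31 bases that occur more than once in the genome made up 64.3% of the words in the input peaks of chromosome 4 and 82.7% of those in the window outside all listed peaks. In the Dzip3, Ring1B and ubH2A peaks there the share was 67.0%, 62.6% and 63.4%. The listed peaks of this window thus held fewer repeated words than the bases around them. On chromosome 5 the order was different, with 86.0% in input peaks, 89.0%, 88.8% and 88.6% in the ChIP peaks, and 81.3% in the rest of the first 222 kb. In 85 of the 308 input peaks on chromosome 4 every word occurred again elsewhere in the genome, and 81 of these 85 overlapped no ChIP peak. That is 33.6% (27.9% to 39.8%) of the 241 input peaks without a ChIP peak and 5.97% (2.35% to 14.4%) of the 67 with one. With words of 51 bases the shares were 28.2% and 4.48%. On chromosome 5 the 2 shares were 15% (6 of 40) and 19.2% (15 of 78), with intervals that overlapped. The 85 peaks of chromosome 4 were also shorter and lower, with medians of 241 bp and 0.331 RPM. The other input peaks there had 354 bp and 0.393 RPM, and the parts of length and height in these shares were not tested. The study gives its depth in uniquely mapped reads. How reads that match several places entered the lists is not given in the sources used here, and its part in these values was not tested.

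Over the input peaks of chromosome 4 the ChIP libraries held less than input DNA. The median level was 3.21 RPM per kb for input DNA (quartiles 2.95 and 3.52), 1.61 for Dzip3 (0.939 and 2.57), 1.45 for Ring1B (0.762 and 2.41) and 1.72 for ubH2A (1.07 and 2.61). The input levels, on which the peaks were called, lay in a narrower band than the ChIP levels, which reached down to 0 reads in 1 peak for Dzip3, 2 for Ring1B and 1 for ubH2A. Summed over the 308 peaks, 20745 input reads stood beside 14149, 12847 and 18731 ChIP reads, which scaled to ratios of 0.618 (0.605 to 0.632) for Dzip3, 0.578 (0.565 to 0.591) for Ring1B and 0.651 (0.638 to 0.664) for ubH2A. Even so, all 4 libraries were above their mean over the genome, input DNA by 8.93 times, Dzip3 by 5.52, Ring1B by 5.16 and ubH2A by 5.81. For input DNA this excess is built into the calling of the peaks. Its median level was also 3.21 RPM per kb over the input peaks outside both windows.

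Over the input peaks of chromosome 5 the 4 libraries were close to each other. The median level was 3.48 RPM per kb for input DNA (3.14 and 4.03), 3.13 for Dzip3 (1.96 and 4.60), 2.85 for Ring1B (1.53 and 4.19) and 3.82 for ubH2A (2.06 and 5.22). The 10131 input reads stood beside 10778, 9338 and 14328 ChIP reads, which scaled to ratios of 0.965 (0.939 to 0.991), 0.860 (0.836 to 0.885) and 1.02 (0.993 to 1.05). Relative to the mean over the genome the levels were 10.2, 9.80, 8.74 and 10.4 times, of which that of input DNA is again built into the peak call. Because input peaks were picked for many input reads, ratios over them are low by construction in any window, and the ratio of a peak to input was a median of 0.335 for Dzip3, 0.304 for Ring1B and 0.418 for ubH2A over the input peaks outside both windows, with 0.507, 0.450 and 0.538 on chromosome 4 and 0.886, 0.759 and 0.984 on chromosome 5 (1 read added).

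**Figure D4:**
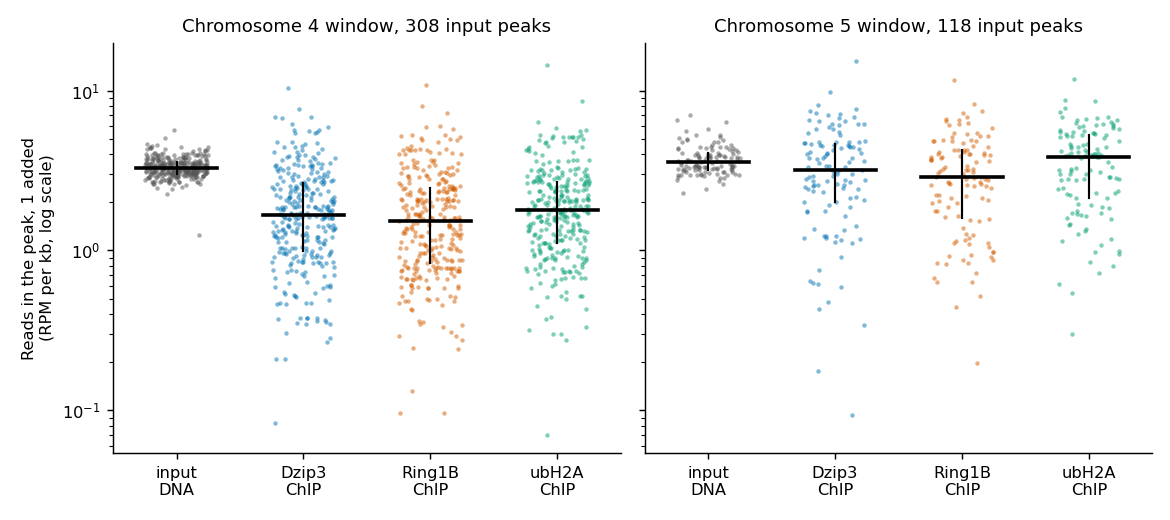
Reads of the 4 libraries in each input peak (points), in RPM per kb with 1 read added (log scale), with the median (thick line) and quartiles (thin line). On chromosome 4 the medians of the 3 ChIP libraries lie below that of input DNA, and on chromosome 5 the 4 medians lie close together.

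At most 0.5 times the input was reached by 155 of 308 chromosome 4 input peaks for Dzip3 (50.3%, against 60.1% of the whole input list), 174 for Ring1B (56.5%, against 63.4%) and 140 for ubH2A (45.5%, against 56.0%). On chromosome 5 it was 29, 37 and 23 of 118 peaks (24.6%, 31.4% and 19.5%). Both windows thus had a smaller share of such peaks than the list they come from, and chromosome 5 the smaller of the pair. The ChIP libraries rose and fell together from peak to peak more than with input DNA. Across the input peaks the Pearson correlation of log2 levels was 0.72 to 0.74 between ChIP libraries on chromosome 4 (n = 308 peaks) and 0.83 to 0.88 on chromosome 5 (n = 118), and 0.02 to 0.15 between input DNA and a ChIP library. Peaks share libraries and sequence, so these describe the lists only, and the narrow band of input levels limits the latter values.

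Over their own peaks, which were picked for many ChIP reads, the ChIP libraries exceeded input DNA, but less often than elsewhere. At least 2 times the input was reached by 40 of 63 Dzip3 peaks on chromosome 4 (63.5%, against 83.3% of the whole list), by 30 of 54 Ring1B peaks (55.6%, against 89.8%) and by 43 of 101 ubH2A peaks (42.6%, against 77.5%). On chromosome 5 it was 25 of 67, 22 of 53 and 27 of 93 (37.3%, 41.5% and 29.0%). The median ratio of a peak was 2.31, 2.24 and 1.71 on chromosome 4 and 1.75, 1.70 and 1.5 on chromosome 5, against 8.13, 14.0 and 5.25 outside both windows. The ChIP peaks of these arrays stood on a high input level. Its median in the input library was 2.69, 2.63 and 2.67 RPM per kb on chromosome 4 and 3.54, 3.84 and 3.40 on chromosome 5. Over the ChIP peaks outside both windows it was 0.680, 0.367 and 0.847. The windows were chosen for their many input peaks, so a high input level, and with it lower ratios, is built into that choice.

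As listed, most input peaks on chromosome 4 had no ChIP peak on them, as in the whole input list, and most on chromosome 5 had one. At a common height too few peaks were left on chromosome 4 to tell whether most had none. No ChIP peak overlapped 241 of 308 input peaks on chromosome 4, 78.2% (73.3% to 82.5%), and 40 of 118 on chromosome 5, 33.9% (26.0% to 42.8%), beside 72.9% of the whole input list. Among peaks of at least 0.619 RPM in all lists it was 11 of 24 on chromosome 4, 45.8% (27.9% to 64.9%), and 15 of 46 on chromosome 5, 32.6% (20.9% to 47.0%). The share of the whole input list at this height was not computed. All 3 ChIP lists overlapped 19 input peaks (6.17%) and 36 input peaks (30.5%), beside 14.3%. A Dzip3 peak overlapped 10.7% of input peaks on chromosome 4 and 44.1% on chromosome 5, a Ring1B peak 11% and 35.6%, and a ubH2A peak 19.5% and 64.4%. Over the whole input list these shares were 18.3%, 17.4% and 24.9%, above those of chromosome 4 and below those of chromosome 5. Over the input peaks without a ChIP peak the scaled ratios were 0.445, 0.404 and 0.465 on chromosome 4 and 0.414, 0.353 and 0.446 on chromosome 5. Over those with all 3 they were 0.95, 0.918 and 0.961, and 1.32, 1.16 and 1.30. These input peaks differed in length, with a median of 284 bp without a ChIP peak and 776 bp with all 3 on chromosome 4, and 291.5 and 536 bp on chromosome 5. They also differed in composition, with a median GC content of 37.2% without a ChIP peak and 42.4% with all 3 on chromosome 4, and 37.0% and 43.8% on chromosome 5. Longer peaks have more bases at which to meet the 1 bp that counts as an overlap, and the parts of length and GC content in the overlap were not tested. From the side of the ChIP lists, an input peak overlapped 60.3% of Dzip3, 66.7% of Ring1B and 64.4% of ubH2A peaks on chromosome 4, and 83.6%, 83.0% and 86.0% on chromosome 5, beside 26.6%, 16.2% and 28.9% of the whole lists. Larger shares than in the whole lists are built into the choice of windows with many input peaks.

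The genes of the chromosome 4 window in the GENCODE annotation of this build are 6 zinc finger genes, 5 other protein-coding entries, 22 pseudogenes, 7 long non-coding RNA genes and a vomeronasal receptor pseudogene. The zinc finger genes are Gm13051, Zfp600, Gm13138, Gm13139, Gm13152 and Gm13154, whose proteins hold 14, 17, 15, 11, 7 and 10 C2H2 motifs. Their bodies cover 22.7% of the sequenced bases and held 63 input peaks, 20.5% (16.3% to 25.3%) of them, so input peaks were about as frequent in them as in the window as a whole. The ChIP peaks were rarer there, with 5 of 63 for Dzip3 (7.94%, 3.44% to 17.3%), 4 of 54 for Ring1B (7.41%, 2.92% to 17.6%) and 10 of 101 for ubH2A (9.90%, 5.47% to 17.3%). Each of the 6 genes held between 5 and 21 input peaks, and the scaled ratio over these lay from 0.347 to 0.642 for Dzip3, 0.256 to 0.655 for Ring1B and 0.369 to 0.733 for ubH2A.

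Zfp600 (chr4:146124225-146166156, + strand), a protein of 17 C2H2 motifs, held 21 input peaks with 1442 input reads, and 3 Dzip3, 3 Ring1B and 5 ubH2A peaks, the most of any protein-coding gene in the window. The ratios over its input peaks were 0.642, 0.655 and 0.733. The input peak of greatest height, printed above (chr4:146141039-146142004), lies in its intron, with 265 input, 231 Dzip3, 296 Ring1B and 332 ubH2A reads, so that scaled ChIP levels there were 0.790, 1.04 and 0.903 times the input. Gm13145, which falls below the limit for a zinc finger gene with 3 C2H2 motifs, came next with 19 input peaks, 1 Dzip3 peak, no Ring1B peak and 1 ubH2A peak, and ratios of 0.484, 0.447 and 0.485. The last of its input peaks, with 450 of 1488 input reads, lies almost wholly past the end of the gene. Gm13152 held 13 input peaks beside 1 Dzip3, no Ring1B and 2 ubH2A peaks, and Gm13138 held 11 beside 1 Dzip3 peak alone. Gm13154 had 7 input peaks and Gm13051 had 5, and no ChIP peak was listed in either. Gm13139 had 6 input peaks, 1 Ring1B and 3 ubH2A peaks. Of the other protein-coding entries, 2610305D13Rik, with 3 C2H2 motifs, had 6 input peaks and 1 of each ChIP list, Gm16503 had 1 input and 1 ubH2A peak, and the 2 entries named Gm13151 had none.

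Long non-coding RNA genes, mainly Gm16889 and Gm17452 on the - strand and Gm17317 on the + strand, span 74.6% of the window and overlap several of the zinc finger genes. They held 234 of 308 input peaks (76%), 74.6% of Dzip3, 72.2% of Ring1B and 77.2% of ubH2A peaks, about the share of bases they cover. Pseudogenes cover 2.49% and held 3.90% (2.24% to 6.69%) of input peaks and 9.52% (4.44% to 19.3%), 9.26% (4.02% to 19.9%) and 8.91% (4.76% to 16.1%) of the ChIP peaks. Exons held 13.6% of input peaks, introns alone 75%, and 11.4% lay outside genes.

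The single peaks of chromosome 4 with the most input reads showed the range. The longest (chr4:146020847-146025514, outside genes) held 876 input, 423 Dzip3, 384 Ring1B and 652 ubH2A reads, so that each ChIP library was near 0.5 of the input after scaling (0.438, 0.409 and 0.536). The second (chr4:146804528-146806990, in introns of Gm16889 and Gm17317) held 453, 498, 547 and 594 reads and was near parity, with ratios of 0.997, 1.13 and 0.945. The third (chr4:146765097-146767435) starts in the last bases of Gm13145, which ends at 146765113, and lies almost wholly past the gene. It held 450, 211, 154 and 252 reads, with ratios of 0.425, 0.319 and 0.403.

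The ChIP peak with the highest ratio to input on chromosome 4 lay in an exon of a pseudogene for each of the 3 targets. The Dzip3 peak of greatest height (chr4:146040784-146041321, exon of the pseudogene Gm13035) held 46 input reads and 274, 228 and 237 ChIP reads, 5.4, 4.62 and 3.71 times the input. At the pseudogene Gm13034 the Dzip3 peak with the highest ratio (chr4:146034914-146035202) held 1 input and 89 Dzip3 reads. The Ring1B peak with the highest ratio, at the same place (chr4:146034879-146035266), held 2 input reads beside 101 Dzip3, 156 Ring1B and 63 ubH2A reads, and with so few input reads neither ratio is given. The Ring1B peak of greatest height (chr4:146209539-146209924, intron of Gm17452) held 31 input reads and 137, 196 and 117 ChIP reads. The ubH2A peak of greatest height (chr4:146774081-146774609, introns of Gm16889 and Gm17317) held 65 input reads and 202, 204 and 362. The ubH2A peak of highest ratio (chr4:146641511-146641735, exon of the pseudogene Gm13158) held 4 input reads and 30, 43 and 82. At the other end, the lowest ratio was 0.786 for a Dzip3 peak inside the strongest input peak in Zfp600 (195 input and 169 Dzip3 reads), 0.726 for a Ring1B peak outside genes at 146893615 (126 and 98) and 0.560 for a ubH2A peak in an exon of Gm13145 at 146764739 (90 and 70). No input peak overlapped 25 Dzip3, 18 Ring1B and 36 ubH2A peaks of the window.

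The chromosome 5 window is annotated with 4 protein-coding Speer genes, the non-coding Speer7-ps1, the calcium channel subunit gene Cacna2d1, and Gm17320, Gm3510 and a U3 small RNA gene. Speer4c and Speer4d carry the family name, and the proteins of Gm17019 and 4930572O03Rik were 97.7% and 99.1% identical to one of them. The gene bodies of Speer4c, Speer4d and 4930572O03Rik align over their whole length with 98.2% to 98.4% identity, and Gm17019 aligns to them over 56.3% to 56.5% with 95.5% to 97.0%. The 4 genes cover 1.93% of the sequenced bases of the window, or 10.7% of those in the first 222 kb, where all input peaks lie, and held 15 of 118 input peaks (12.7%, 7.86% to 19.9%), 15 of 67 Dzip3 (22.4%, 14.1% to 33.7%), 12 of 53 Ring1B (22.6%, 13.5% to 35.5%) and 18 of 93 ubH2A peaks (19.4%, 12.6% to 28.5%). The share of input peaks is thus near the share of bases in the array. Outside all genes lay 70.3% of input peaks, and 62.7%, 52.8% and 65.6% of the ChIP peaks.

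In each of the 4 Speer genes all 3 ChIP libraries exceeded input DNA over the gene's input peaks. None of them did in any of the 6 zinc finger genes of chromosome 4. The windows themselves differed in the same direction. Over all their input peaks the ratios for Dzip3, Ring1B and ubH2A were 0.965, 0.860 and 1.02 on chromosome 5. On chromosome 4 they were 0.618, 0.578 and 0.651, so the contrast is not one of gene families alone. Speer4c (chr5:15215319-15220054, - strand) had 5 input peaks with 373 input, 724 Dzip3, 567 Ring1B and 884 ubH2A reads, 1.76, 1.42 and 1.71 times the input. Speer4d (chr5:15124882-15129682, + strand) had 4 with 205, 404, 354 and 493 reads, 1.79, 1.61 and 1.73 times. 4930572O03Rik (chr5:15158104-15162877, - strand) had 4 with 390, 652, 508 and 756 reads, 1.52, 1.22 and 1.40 times. Gm17019 (chr5:15028950-15032998, - strand) had 2 with 96, 247, 163 and 268 reads, 2.33, 1.58 and 2.01 times. The lowest of these ratios was 1.22, for Ring1B in 4930572O03Rik. The copies are so alike that a read may match more than one gene, so the 4 genes are not independent of each other.

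The input peaks at the coding exon printed above were 224 bp long in Gm17019, 240 bp in Speer4d, 638 bp in 4930572O03Rik and 570 bp in Speer4c, so their reads differ also by length. The peak was centred 2663 bp past the gene start in Gm17019, 3479 bp in Speer4d, 3612 bp in 4930572O03Rik and 3680 bp in Speer4c, and held 30, 37, 133 and 125 input reads beside 54, 72, 252 and 232 Dzip3 reads, 44, 77, 200 and 213 Ring1B reads, and 68, 101, 259 and 331 ubH2A reads. Gene starts differed between the copies. At Speer4c, where the array ends, peaks of all 4 lists covered the start, among them a Dzip3 peak with 100 input, 377 Dzip3, 272 Ring1B and 378 ubH2A reads (centred 99 bp past it) and a Ring1B peak with 82, 341, 327 and 351 reads (centred 210 bp before it). Gm17019 had a Ring1B peak with 33 input, 65 Dzip3, 105 Ring1B and 96 ubH2A reads and a ubH2A peak over its start, and no Dzip3 peak. At Speer4d and 4930572O03Rik no list had a peak over the annotated start, and the nearest ChIP peaks were centred 573 bp past it (ubH2A, 17 input and 92 ubH2A reads) and 538 bp past it (Dzip3, 22 input and 106 Dzip3 reads). Stretches of 60 bases just before the starts are nonetheless nearly the same, as shown here with capitals where they differ from Speer4c (chr5:15220095-15220154, chr5:15033013-15033072 and chr5:15162902-15162961 on the - strand and chr5:15124817-15124876 on the + strand).
Speer4c: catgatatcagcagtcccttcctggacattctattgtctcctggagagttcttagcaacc
Gm17019: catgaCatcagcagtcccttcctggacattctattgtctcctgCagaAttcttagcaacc
4930572O03Rik: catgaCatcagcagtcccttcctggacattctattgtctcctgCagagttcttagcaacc
Speer4d: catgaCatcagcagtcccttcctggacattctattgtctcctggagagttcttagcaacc

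**Figure D5:**
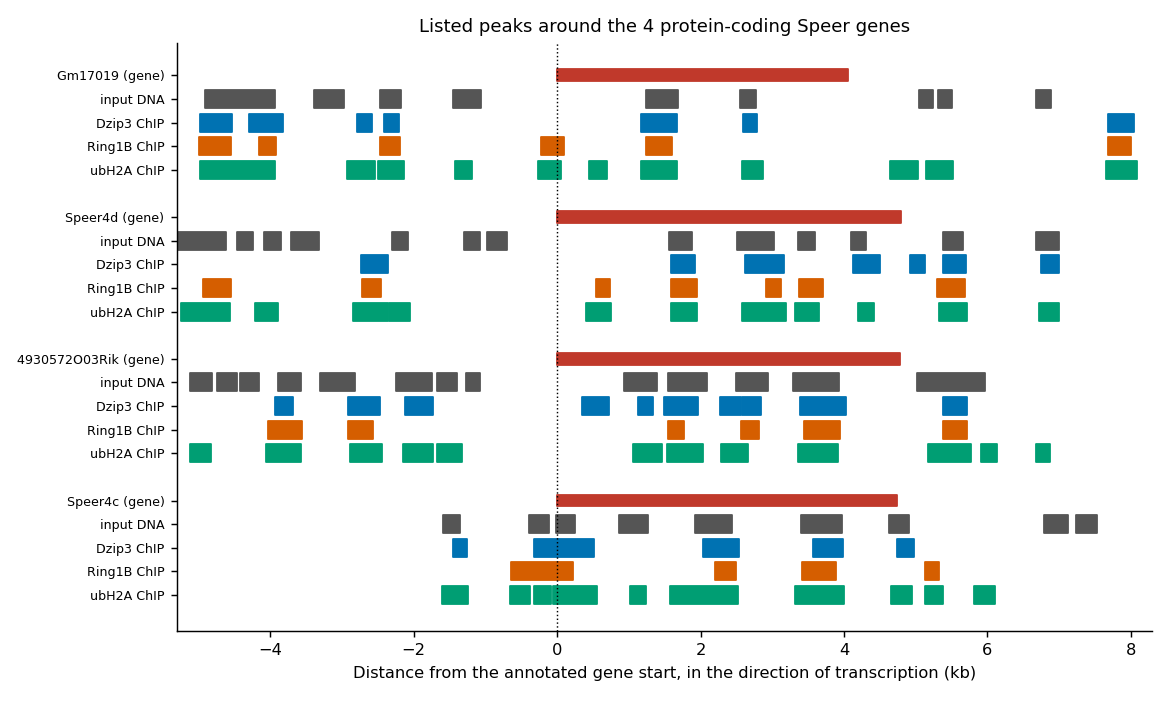
Listed peaks of the 4 libraries (bars, to scale) from 5 kb before to 8 kb after the annotated start of each protein-coding Speer gene (red), in kb in the direction of transcription; peaks centred outside this range are not drawn. Peaks of several lists lie at 1 to 4 kb past the start in all 4 genes, and a peak covers the start in Gm17019 and Speer4c.

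Speer7-ps1 (chr5:15186528-15220414, + strand), which overlaps Speer4c in the opposite direction, held 25 input, 12 Dzip3, 14 Ring1B and 18 ubH2A peaks, and its ratios over input peaks were 0.990, 0.872 and 0.973. It contains the input peak with the most reads (chr5:15194802-15196787), with 459 input, 683 Dzip3, 547 Ring1B and 838 ubH2A reads, 1.35, 1.11 and 1.32 times the input, and the greatest heights of Dzip3 (chr5:15196267-15196757), Ring1B (chr5:15196292-15196767) and ubH2A (chr5:15194676-15195666) fall within or across it. The input peak of greatest height, printed above (chr5:15199739-15200176), lies in the same intron and went the other way, with 148 input reads beside 46, 41 and 55, 0.282, 0.258 and 0.268 times. Of the next input peaks by reads, that at chr5:15007431-15008977 held 285 input and 390, 408 and 610 ChIP reads, and that at chr5:15186403-15187419, over the first exon of Speer7-ps1, held 283 input and 202, 169 and 204. Outside genes, centred at position -2600 bp from the start of Speer4d, lay the ubH2A peak with the highest ratio (chr5:15122040-15122524), with 22 input, 172 Dzip3, 103 Ring1B and 175 ubH2A reads, 7.09, 4.37 and 5.73 times the input. The lowest ratio of a ChIP peak to input in its own library was 0.728 for Dzip3 (chr5:15024192-15024392, 66 input and 53 Dzip3 reads), 0.617 for Ring1B (chr5:15199262-15199548, 127 and 84) and 0.534 for ubH2A (chr5:15136645-15136857, 89 and 66), so that some listed peaks of each ChIP library held less than input DNA.

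Beyond the array, 3 Dzip3 peaks held between 5 and 27 input reads. Cacna2d1 (chr5:15440509-15880329, + strand), the auxiliary alpha2/delta subunit of voltage-gated calcium channels, had no input peak. In its introns a Dzip3 peak at chr5:15676178-15676555 held 27 input, 117 Dzip3, 122 Ring1B and 112 ubH2A reads, and was also listed for Ring1B and ubH2A. A second at chr5:15680985-15681196 held 5 input and 62, 66 and 39 ChIP reads and was also listed for Ring1B, as the Ring1B peak of highest ratio (58 Ring1B reads, 10.8 times the input). The remaining Dzip3 peak, between the array and Cacna2d1 (chr5:15388596-15388796), held 5 input, 69 Dzip3, 28 Ring1B and 10 ubH2A reads, and had the highest Dzip3 ratio of the window, 12.5. Gm17320, Gm3510 and the U3 gene held no peak of any list.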

How the data were processed

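The authors made the lists from reads placed on mm9 with up to 1 mismatch, and each library had its own peak call in Partek Genomics Suite (FDR 0.1). The deposited lists give each peak's position, the count of reads of all 4 libraries in it and the largest count of extended reads. Also deposited by the authors are the RPM of that height and the percent of each peak covered by peaks of the other libraries. Their p-values and fold values were not used. For fragmentation the paper names micrococcal nuclease and the labels a Picoruptor. Positions are as listed and may be off by 1 base.

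Library sizes were taken as extended reads divided by RPM. A row of the input list and a row of the ubH2A list without 18 columns were left out, neither near the windows. Ratios are of summed reads scaled to library size with exact conditional intervals, and shares have Wilson intervals, both at 95%. Overlap needs 1 bp. Words of 31 bases were counted on both strands of the mm9 assembly (NCBIM37). Genes are those of GENCODE vM1 that overlap a window. A zinc finger gene has a Zfp-like symbol or at least 5 C2H2 motifs, and a Speer gene has the symbol or a protein at least 50% identical to one over 50% of its length. Like peaks were grouped by blastn. Named are, in each window, the 5 protein-coding genes with most input peaks, the 5 with most ChIP peaks, those of no family, the 3 input peaks with most reads, and the highest peak and the extreme ratios of each ChIP list. Functions were tested on simulated data. The members and lists were chosen with earlier results of these data known. Alternatives were other thresholds, overlaps, word lengths, summaries and merged peaks. Tools were Python 3.11.15, BLAST 2.17.0, Biopython 1.88, matplotlib 3.10.9, numba 0.67.0, numpy 2.4.6, pandas 2.3.3 and scipy 1.17.1.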

Additional observations from a re-analysis of the deposited data

How the results depend on the processing

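No paired analysis was possible because every target has a single library. Of 94 values recomputed, 44 stayed within their counting interval or within 1.5 times a count, 44 moved and 6 changed side of 1. With the peaks of the ChIP library in place of input peaks, the ratios for Dzip3, Ring1B and ubH2A were 2.07, 1.99 and 1.78 on chromosome 4 and 1.74, 1.68 and 1.49 on chromosome 5, all above 1. With reads not scaled they were 0.682, 0.619 and 0.903, and 1.06, 0.922 and 1.41. As a median over peaks they were 0.507, 0.450 and 0.538, and 0.886, 0.759 and 0.984, and over the stronger 50% of input peaks Ring1B was at 0.832 on chromosome 5. At the common height of 0.619 RPM there were 24 input and 52 ubH2A peaks on chromosome 4, and 46 and 59 on chromosome 5. The stronger 50% of each list left 125 input, 30 Dzip3, 28 Ring1B and 54 ubH2A peaks on chromosome 4, and 41 Dzip3 and 33 Ring1B peaks on chromosome 5. Input peaks of the common height overlapped Dzip3, Ring1B and ubH2A peaks of that height in 41.7%, 33.3% and 50% on chromosome 4, and Dzip3 and Ring1B peaks in 58.7% and 50% on chromosome 5. In the stronger 50% of the lists a Ring1B peak overlapped 8% on chromosome 4, and Dzip3 and ubH2A peaks 35.2% and 52.3% on chromosome 5. The spacing on chromosome 4 was 1590 bp with gaps under 100 bp merged and 2386 bp in the stronger 50%, and that on chromosome 5 was 1072 bp in the stronger 50%. At the common height, an alternative added after seeing the data, it was 4410 and 1837 bp, and 45.8% of the chromosome 4 input peaks had no ChIP peak. Protein-coding genes alone held 28.9% and 12.7% of input peaks. Repeated words made up 75.8% and 92.1% at 21 bases and 48.7% and 73.9% at 51 bases, and 56.4% in the stronger 50% on chromosome 4. The lists stop at 15 to 33 reads, so weaker peaks are not listed. The cause of these shifts was not tested beyond what each alternative changes by construction.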
